A study of Mus musculus with 18 samples.

Results

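Hypoxia response genes outside the core of glycolysis were followed in 3 lung carcinoma lines of the mouse, each sorted into a side population (SP) and the rest (non-SP). They were taken as a named list of 35 genes induced by low oxygen or belonging to the oxygen-sensing system. Each gene was read from whichever of its probe sets averaged highest on the 18 arrays. A probe set carrying that gene alone was found for 34 of the 35, out of 18193 genes on the array, and 31 lay above the filter on low signal that left 10916 genes for testing. The SP is the fraction that stays dim with the DNA stain Hoechst, which transporters such as Abcg2 export, and the non-SP fraction holds the brighter cells. The study asked how expression differs between both fractions. The lines A2C12, betaD5 and cRAF_cMYC had each been grown out of lung tumours of 8-month-old mice carrying c-myc and c-raf transgenes, so all 6 groups share both transgenes, and what drives the transgenes in these mice is not given in the sources used here. Each line was sorted into SP and non-SP cells with 3 arrays per group. The cultures are described as grown in ordinary medium in a humidified CO2 incubator, and no low-oxygen treatment or drug is named for any group.

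Cells read oxygen through hydroxylases of the Egln family (Egln1 and Egln3), which use oxygen to mark the alpha subunits Hif1a and Epas1. Marked subunits are bound by Vhl and destroyed. When oxygen is short they escape this, pair with Arnt and bind DNA at the core sequence ACGTG or GCGTG near target genes for glucose uptake, glycolytic control, collagen modification, mitochondrial removal and vessel growth. This control acts mainly on protein stability, so the mRNA of Hif1a itself says little about its activity. Several targets, among them Egln3, Vegfa, Ddit4 and Ndrg1, also respond to other stresses.

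The stretches before the start sites of the genes on which the SP results turn are shown because the listed genes are defined by the factor that binds such a core. Sequences are from RefSeq on GRCm38.p6, 250 bases upstream of a start site, read 5′ to 3′ on the strand of the gene. Capitals mark the core ACGTG or GCGTG on either strand (CACGT or CACGC when it lies on the opposite strand). A CACGTG box counts as a match on both strands and is also the site of Myc and of Bhlhe40. Kdm3a, Pfkfb3, Ddit4 and Ero1a are 4 of the 5 genes with the smallest p in the SP comparison (Ndrg1, the other, is named only), and Egln3 was added after its values were seen, because its signal divided the arrays into a low and a high set.
Kdm3a, chr6:71632918-71633167, minus strand: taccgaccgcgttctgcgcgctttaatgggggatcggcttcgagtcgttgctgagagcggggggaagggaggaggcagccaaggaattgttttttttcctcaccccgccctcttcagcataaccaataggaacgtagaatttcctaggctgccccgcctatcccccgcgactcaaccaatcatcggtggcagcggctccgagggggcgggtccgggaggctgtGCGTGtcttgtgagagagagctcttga
Pfkfb3, chr2:11553930-11554179, minus strand: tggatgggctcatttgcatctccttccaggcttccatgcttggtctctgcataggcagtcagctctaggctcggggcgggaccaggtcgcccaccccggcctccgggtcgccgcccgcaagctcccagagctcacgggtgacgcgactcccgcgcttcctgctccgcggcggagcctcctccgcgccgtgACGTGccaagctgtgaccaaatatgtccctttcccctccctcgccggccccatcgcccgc
Ddit4, chr10:59951771-59952020, minus strand: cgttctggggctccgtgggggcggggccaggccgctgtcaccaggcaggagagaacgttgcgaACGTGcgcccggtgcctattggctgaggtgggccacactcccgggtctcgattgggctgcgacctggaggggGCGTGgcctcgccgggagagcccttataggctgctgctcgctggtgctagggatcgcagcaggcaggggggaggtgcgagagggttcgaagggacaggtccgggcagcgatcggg
Ero1a, chr14:45318573-45318822, minus strand: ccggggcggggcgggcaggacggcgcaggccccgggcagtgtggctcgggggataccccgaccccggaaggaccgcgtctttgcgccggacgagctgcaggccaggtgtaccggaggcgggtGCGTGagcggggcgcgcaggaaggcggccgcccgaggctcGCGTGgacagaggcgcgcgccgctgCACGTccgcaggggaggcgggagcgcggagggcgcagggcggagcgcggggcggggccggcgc
Egln3, chr12:54203875-54204124, minus strand: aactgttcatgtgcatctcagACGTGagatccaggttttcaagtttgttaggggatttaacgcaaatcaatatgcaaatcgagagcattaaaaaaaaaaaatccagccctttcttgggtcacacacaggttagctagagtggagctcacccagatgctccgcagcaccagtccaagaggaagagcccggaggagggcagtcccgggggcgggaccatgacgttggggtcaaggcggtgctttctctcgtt
Kdm3a held 1 core in the window shown, its first base 27 bases before the start site, and 0 at its other start sites. Pfkfb3 held 1 in the window shown and 3 matches at another start site, a CACGTG box included. Ddit4 held 2, Ero1a 3 and Egln3 1. Of the 35 listed genes 28 had such a window, and 25 of these (89.3%) held the core in at least 1 of their windows. The same was true of 41.5% of 27018 genes with a window and of 62.2% of the 8861 tested genes with a window. CACGTG was found in 5 of the 28 genes (17.9%) and in 10.2% of the tested genes with a window. A match describes these letters only and was not set against any binding data.

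The signals are log2 values as deposited, so a difference of 1 is a 2-fold change of signal, and signals of different probe sets are not comparable as amounts of RNA. Array medians ran from 5.80 to 6.72, and the 6 A2C12 arrays and both arrays of cRAF_cMYC 1 had the lowest. Both arrays labelled betaD5 1 resembled cRAF_cMYC arrays (r up to 0.983, against at most 0.925 with other betaD5 pairs), and both labelled cRAF_cMYC 3 resembled betaD5 arrays (r up to 0.988, against at most 0.930), so these lines are named as labelled and results are also given without both pairs. Abcg2, the transporter behind the SP phenotype, averaged 10.75 ± 0.11 in non-SP and 11.19 ± 0.32 in SP cells of betaD5, 10.69 ± 0.24 and 10.94 ± 0.36 in cRAF_cMYC, and 8.54 ± 0.04 and 8.60 ± 0.26 in A2C12 (SD, n = 3), and did not pass the test in SP cells. Among cell type markers, 4 of 8 epithelial genes passed the filter (Krt19 read 9.58 to 12.42 and Epcam 7.94 to 9.98, but Cdh1 only 3.37 to 6.97), as did 1 of 7 lung epithelial genes (the surfactant gene Sftpb, at 7.30 to 8.27, while Sftpc read at most 6.60) and 7 of 8 fibroblast genes (Col1a2 read 12.15 to 14.76). Against the labelled carcinoma origin, some epithelial and most lung epithelial markers were thus under the filter, while Col1a2 was high on all arrays. Ptprc, the pan-leukocyte gene, read at most 4.72, although Csf1r read 7.23 to 11.01.

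In SP cells most of the tested hypoxia genes lay slightly above their non-SP partners in betaD5 and cRAF_cMYC, while in A2C12 the genes were spread on both sides of 0. Averaged over the lines, 27 of 31 genes lay above 0 with a median difference of 0.15 (log2), against a median of 0.01 over all genes tested. In betaD5 27 of 31 lay above 0 (median 0.24, all genes 0.03), in cRAF_cMYC 23 (median 0.18, all genes 0.01) and in A2C12 16 (median 0.00, all genes -0.01). None of the 31 passed an adjusted p under 0.05 in any of these 4 comparisons (limma moderated test, Benjamini-Hochberg over 10916 genes), and neither did any other gene (0% called). At an unadjusted p under 0.05 limma gave 2 of the 31 for the mean of the lines, Kdm3a and Pfkfb3, with 31 of all genes higher and 5 lower. Within single lines it gave 0 of the 31 in A2C12, 0 in betaD5 and 2 in cRAF_cMYC. No count over all genes is given beside these single-line counts. The 2 in cRAF_cMYC were therefore not set against one and are not read as a result. These counts describe a list of genes that share cells and arrays, and are not a test of the list. The list was chosen with earlier results of these data known, so its excess over all genes is description only.

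The replicate numbers were taken to pair the arrays, because same-numbered SP and non-SP arrays deviated together from their group means. For betaD5 2 and 3 this held about as well with another number (r 0.62 against 0.57, and 0.60 against 0.68). Their pairing therefore rests on the labels. In a fit without pairs, level differences between the pairs of a line enter the SE of an SP difference. SEs given below without mention of pairing come from a fit of that kind. A limma fit that blocks on the 9 pairs also called 0 genes in these 4 comparisons. At an unadjusted p under 0.05 that fit gave 13 of the 31 genes as higher and 0 as lower for the mean of the lines, where 9.42% of all genes were higher and 3.75% lower. In betaD5 14 were higher (8.68% of all genes), in cRAF_cMYC 9 were higher and 1 lower (5.27% and 2.97% of all genes), and in A2C12 0 were higher (0.87% of all genes). SP exceeded non-SP in at least 8 of the 9 pairs for 7 of the 31 genes (Kdm3a, Ero1a, Ndrg1, Egln3, Slc2a1, Slc2a3 and Ak4), a pattern met by 6.29% of all genes. For Slc2a3 this count includes 3 A2C12 pairs, and for Egln3 3 betaD5 and cRAF_cMYC pairs, with both signals under the filter limit (6.53). In all 6 pairs of betaD5 and cRAF_cMYC, SP was higher for 11 of the 31 (7.15% of all genes), a rule set after the values had been seen.

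**Figure D1:**
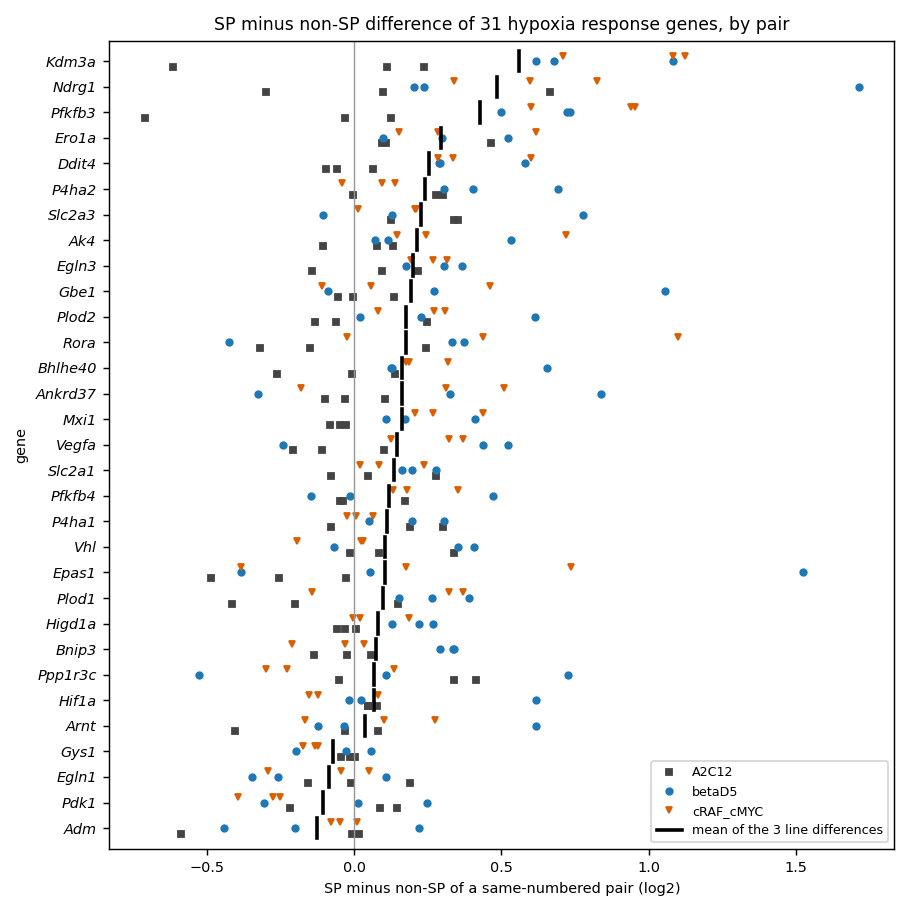
Each row is 1 of the 31 tested hypoxia response genes and each point the SP minus non-SP difference (log2) of 1 same-numbered pair, by line, with a black bar for the mean of the 3 line differences. Kdm3a, Ndrg1 and Pfkfb3 are at the top with means of 0.56, 0.49 and 0.43, their betaD5 and cRAF_cMYC points all lie above 0, and their A2C12 points lie on both sides of it.

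Kdm3a, a histone H3 lysine demethylase that is itself a hypoxia target, showed the smallest p. In betaD5 it read 11.35, 10.12 and 10.20 in non-SP arrays 1 to 3 and 11.97, 11.20 and 10.88 in their SP partners. The cRAF_cMYC non-SP arrays gave 9.85, 10.77 and 10.50 and the SP arrays 10.56, 11.85 and 11.62. In A2C12 the non-SP signals were 9.98, 9.43 and 9.82 and the SP signals 9.36, 9.67 and 9.93. Every betaD5 and cRAF_cMYC pair was therefore higher in SP, by 0.62 to 1.12, although the groups overlapped within each of these lines because the pairs themselves differed in level, and A2C12 pairs went both ways. The difference was 0.97 in cRAF_cMYC (SE 0.39, 95% interval 0.16 to 1.79) and 0.79 in betaD5 (SE 0.39, -0.02 to 1.61), with adjusted limma p-values of 0.99998 and 0.9999. The paired fit gave SE 0.16 for each of these values, an unadjusted p of 7.4e-05 in cRAF_cMYC and 0.00041 in betaD5, and adjusted p-values of 0.16 and 0.30.

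Pfkfb3, which makes the activator of phosphofructokinase and so promotes glycolytic flux, differed in the same direction in these lines. Its betaD5 signals were 9.04, 9.23 and 9.05 in non-SP and 9.76, 9.96 and 9.55 in SP arrays, which did not overlap. The cRAF_cMYC values were 7.67, 8.71 and 9.02 in non-SP and 8.61, 9.31 and 9.97 in SP arrays. A2C12 read 7.18, 6.76 and 6.63 in non-SP and 6.47, 6.89 and 6.60 in SP arrays. SP was higher by 0.50 to 0.95 in each betaD5 and cRAF_cMYC pair, and A2C12 sat lower than every other array in both fractions. The fitted differences were 0.65 (SE 0.34) in betaD5, 0.83 (SE 0.34) in cRAF_cMYC and -0.20 (SE 0.34) in A2C12. A second probe set of Pfkfb3, with a mean signal of only 5.59, gave -0.23 in betaD5 and 0.28 in cRAF_cMYC. Pfkfb4, the related isoform, differed by 0.12 (SE 0.21) averaged over the lines.

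Ddit4, an inhibitor of mTORC1 signalling, read near the top of the scale on all arrays. Its betaD5 signals were 13.60, 12.72 and 12.76 in non-SP and 13.89, 13.31 and 13.05 in SP arrays. In cRAF_cMYC they were 12.64, 13.49 and 12.80, then 12.97, 13.77 and 13.40 in SP arrays. A2C12 held 13.07, 13.11 and 13.00 in non-SP and 12.97, 13.05 and 13.07 in SP arrays. All 6 betaD5 and cRAF_cMYC pairs were higher in SP by 0.28 to 0.60, and the A2C12 pairs stayed within 0.10 of 0. The mean of the lines was 0.25 (SE 0.16), and the paired limma fit gave SE 0.05, an unadjusted p of 0.00014 and an adjusted p of 0.16.

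Ndrg1, a stress-induced growth regulator, had the widest difference within a pair among the 31 tested genes. In betaD5 it read 12.26, 10.43 and 11.08 in non-SP and 12.46, 12.15 and 11.32 in SP arrays, so pair 2 alone moved by 1.71. The cRAF_cMYC arrays gave 10.90, 11.91 and 10.95 in non-SP and 11.23, 12.50 and 11.77 in SP arrays. A2C12 gave 10.50, 10.68 and 10.27 in non-SP and 10.20, 11.34 and 10.37 in SP arrays. SP was higher in 8 of 9 pairs, and all 5 probe sets of Ndrg1 gave a mean difference above 0, from 0.31 to 0.81. The fitted mean of the lines was 0.49 (SE 0.26).

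Ero1a, the oxidase that drives disulfide formation in the endoplasmic reticulum, was higher in SP in all 9 pairs. Non-SP and SP arrays read 11.18, 11.49 and 11.41 against 11.29, 11.96 and 11.50 in A2C12. The betaD5 values were 11.67, 11.00 and 10.50 against 11.97, 11.09 and 11.02. In cRAF_cMYC they were 10.17, 11.52 and 11.03 against 10.32, 12.13 and 11.31. The differences ran from 0.09 to 0.62, and the groups overlapped in every line. The mean was 0.29 (SE 0.24), and the paired limma fit gave SE 0.07, an unadjusted p of 0.0011 and an adjusted p of 0.19. Both other probe sets of Ero1a gave means of 0.18 and 0.34.

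**Figure D2:**
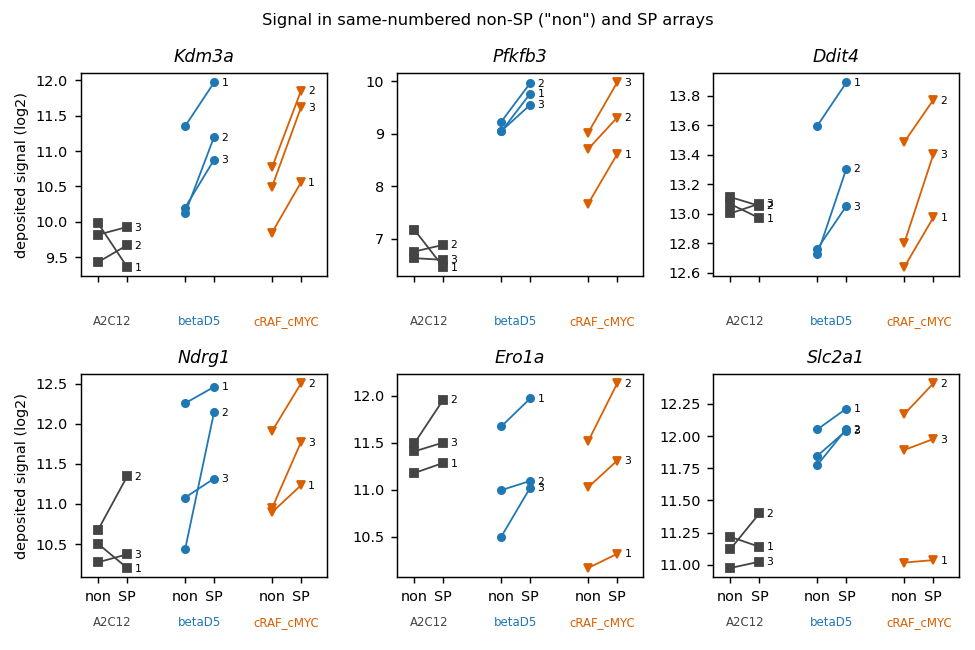
Deposited log2 signals of 6 genes, with a line joining the non-SP and SP array of each same-numbered pair and the number printed beside the SP point. The SP point lies above the non-SP point for all 6 genes in each of the 6 betaD5 and cRAF_cMYC pairs, and for Ero1a also in the 3 A2C12 pairs, and pairs of 1 line start from different levels.

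Genes of collagen modification gave smaller values. P4ha2, a collagen prolyl hydroxylase subunit, read 10.66, 9.72 and 9.87 in betaD5 non-SP and 10.97, 10.41 and 10.27 in SP arrays. In A2C12 it read 10.62, 10.33 and 10.42, then 10.62, 10.63 and 10.69, and in cRAF_cMYC 10.14, 11.14 and 9.93, then 10.10, 11.24 and 10.07. The betaD5 pairs moved by 0.31 to 0.69 and the cRAF_cMYC pairs by -0.04 to 0.14, with overlapping groups. Plod2, a lysyl hydroxylase that strengthens collagen cross-links, read 9.42, 9.23 and 9.49 in betaD5 non-SP and 9.44, 9.85 and 9.72 in SP arrays. Its cRAF_cMYC signals were 8.81, 9.51 and 9.51, then 8.89, 9.82 and 9.78 in SP arrays, and its A2C12 signals 8.41, 8.89 and 9.09, then 8.66, 8.76 and 9.03. SP was higher in all 6 betaD5 and cRAF_cMYC pairs, by 0.02 in the smallest, and a second probe set of Plod2 gave a mean of -0.09 against 0.18. P4ha1, the other prolyl hydroxylase subunit and the gene with the smallest p in A2C12, read 10.80, 10.79 and 10.83 there in non-SP and 11.10, 10.71 and 11.02 in SP arrays. The betaD5 arrays gave 11.40, 11.22 and 11.10 and then 11.59, 11.27 and 11.40 for P4ha1, and cRAF_cMYC gave 10.96, 11.47 and 11.41 and then 11.03, 11.45 and 11.42. The A2C12 difference was 0.14 (SE 0.19), less than its spread over pairs (-0.08 to 0.30). Plod1 averaged 0.10 (SE 0.16).

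Among transcription factors and metabolic genes, Mxi1, an antagonist of Myc, read 9.71, 9.69 and 9.77 in betaD5 non-SP and 9.82, 10.10 and 9.95 in SP arrays, without overlap. In cRAF_cMYC the signals were 8.66, 9.72 and 9.61, then 9.10, 9.93 and 9.88, and in A2C12 9.29, 9.20 and 9.49, then 9.21, 9.17 and 9.44. SP was higher in the 6 pairs of betaD5 and cRAF_cMYC and lower by at most 0.08 in the 3 A2C12 pairs. A second, dimmer probe set of Mxi1 gave -0.01 in betaD5, 0.14 in cRAF_cMYC and -0.07 in A2C12. Ppp1r3c, a glycogen-targeting subunit of protein phosphatase, read 7.31, 7.67 and 7.65 in A2C12 non-SP and 7.72, 7.62 and 7.99 in SP arrays. Its betaD5 signals were 6.66, 7.14 and 6.60, then 6.77, 6.61 and 7.32, and its cRAF_cMYC signals 6.27, 7.48 and 7.83, then 6.40, 7.26 and 7.54. No order of the fractions was seen in it (-0.53 to 0.73 over pairs). Bhlhe40, a repressor of the circadian system, was higher in SP in all 6 betaD5 and cRAF_cMYC pairs with a mean of the lines of 0.16 (SE 0.16), and Ak4, a mitochondrial adenylate kinase, gave 0.21 (SE 0.21). Means of the other tested genes of mitochondria, glycogen and vessel growth ran from -0.12 for Adm to 0.19 for Gbe1.

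The oxygen-sensing factors themselves gave small mean differences in SP cells, above 0 for Hif1a, Epas1, Arnt, Vhl and Egln3 and below 0 for Egln1, and none was called. The sign was not the same on all probe sets. A second probe set gave 0.09 for Egln1 and -0.07 for Epas1 (mean signal 6.31), and the others of Hif1a gave -0.05, 0.10 and -0.04. All other probe sets of Arnt, Vhl and Egln3 gave means above 0. Hif1a read 12.49, 12.30 and 12.44 in A2C12 non-SP and 12.54, 12.35 and 12.52 in SP arrays. In betaD5 it read 13.02, 12.96 and 12.55, then 13.04, 12.94 and 13.17, and in cRAF_cMYC 12.15, 13.02 and 12.97, then 12.03, 12.87 and 13.05. The signal was high on every array, and the mean difference was 0.07 (SE 0.15, 95% interval -0.24 to 0.37). Epas1, the other alpha subunit, differed by 0.11 (SE 0.39), Arnt by 0.04 (SE 0.21), Vhl by 0.11 (SE 0.17) and Egln1 by -0.08 (SE 0.21). Egln3 differed by 0.20 (SE 0.83 without pairing, which takes in its low and high arrays within betaD5 and within cRAF_cMYC). For Egln3 the paired limma fit gave SE 0.06, an unadjusted p of 0.0045 and an adjusted p of 0.23. Vegfa, the vessel growth factor, read 9.70, 9.96 and 9.75 in A2C12 non-SP and 9.49, 10.06 and 9.64 in SP arrays. Its betaD5 values were 10.96, 9.84 and 10.08, then 11.39, 10.36 and 9.84, and its cRAF_cMYC values 9.22, 10.90 and 9.82, then 9.34, 11.22 and 10.19. SP was higher in 6 of 9 pairs of Vegfa, with a mean of 0.15 (SE 0.28). Slc2a1, the glucose transporter Glut1, read 12.05, 11.78 and 11.85 in betaD5 non-SP and 12.21, 12.06 and 12.04 in SP arrays. Its cRAF_cMYC signals were 11.02, 12.17 and 11.89, then 11.04, 12.41 and 11.98, and its A2C12 signals 11.22, 11.12 and 10.97, then 11.14, 11.40 and 11.02. Slc2a1 was higher in SP in 8 of 9 pairs by at most 0.28, and all 3 of its probe sets had means above 0 (0.13 to 0.25).

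Car9, Slc16a3 and Zfp395 did not pass the filter, whose limit was a mean of 6.53. Car9, the carbonic anhydrase often used as a hypoxia marker, read at most 6.34 on any array, and Slc16a3, a lactate exporter, at most 5.74. Zfp395 read 5.62 to 7.07. The probe sets of Bnip3l carry a second symbol as well, so it was not analysed here.

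The differences between lines were tested directly. None of the 31 genes and no other gene was called for betaD5 minus A2C12, cRAF_cMYC minus A2C12 or betaD5 minus cRAF_cMYC (limma, adjusted p). For cRAF_cMYC minus A2C12 the difference of SP differences was 1.04 for Pfkfb3 (SE 0.48, 95% interval 0.03 to 2.04) and 1.06 for Kdm3a (SE 0.55, -0.09 to 2.22), and limma gave 1 of the 31 genes, with 2 of all genes higher and 1 lower, at an unadjusted p under 0.05. In the paired fit, which also called 0 genes, 4 of the 31 (Pfkfb3, Kdm3a, Ddit4 and Mxi1) were higher at an unadjusted p under 0.05 (3.11% of all genes), all at an adjusted p of 0.97. For betaD5 minus A2C12 the paired fit had 7 of 31 at that level (3.83% of all genes), with adjusted p-values of 0.91, and the unpaired fit had 0 of the 31, with 3 of all genes higher and 0 lower. For betaD5 minus cRAF_cMYC the unpaired fit had 0 of all genes at that level, and the paired fit gave 2 of the 31 as higher, Bnip3 and P4ha2 (1.39% of all genes), with adjusted p-values of 0.9998. A difference between the lines was therefore not called for any of the 31 genes. The 2 comparisons with A2C12 share its arrays.

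RNA quality moved with part of these results. The log2 ratio of the 3′ to the 5′ control probe sets of Gapdh was 0.76 and 0.97 in the SP arrays of betaD5 2 and 3, above all 9 non-SP arrays (at most 0.56), and in cRAF_cMYC 2 the non-SP array had the higher ratio (0.56 against 0.00). The covariate added to the paired fit was the mean of this Gapdh ratio and the same ratio of Actb. With it the mean of the lines was 0.57 for Kdm3a, 0.44 for Pfkfb3 and 0.23 for Ddit4. In betaD5 the median of the 31 genes then went from 0.24 to 0.15. For leukocyte markers the mean of 6 genes, of which 3 passed the filter, was lower in SP in 9 of 9 pairs (by 0.01 to 0.24). This mean was 5.79 to 7.06 in SP and 5.83 to 7.30 in non-SP arrays, with 0 of 3 genes called. No single leukocyte gene was lower in every pair. SP was higher in 3 of 9 pairs for Ptprc, Adgre1, Cd79a and Csf1r, in 4 for Cd68 and in 5 for Cd3e. Fibroblast markers, as the mean of 8 genes, ran from 9.27 to 12.21 in SP and from 9.43 to 12.34 in non-SP arrays and were higher in SP in 3 of 9 pairs. The part of these markers in the SP differences was not tested. Fewer cells of a kind and less RNA per cell cannot be told apart in sorted bulk cells. Without the pairs betaD5 1 and cRAF_cMYC 3 the median of the 31 genes was 0.30 in betaD5 (25 above 0) and 0.09 in cRAF_cMYC (20 above 0). The cRAF_cMYC median also turned to -0.09 without its SP array 2 (14 above 0) and to -0.04 without its non-SP array 1 (10 above 0), where the median of all genes fell to -0.12 and -0.19. It was 0.48 (30 above 0) without its non-SP array 2 and 0.28 (28 above 0) without its SP array 1, where the median of all genes was 0.17 and 0.21. In A2C12 it was 0.06 without SP array 1 (23 above 0, all genes -0.02) or non-SP array 3 (20 above 0, all genes -0.04), -0.05 without non-SP array 1 (12 above 0) and -0.06 without SP array 3 (10 above 0, all genes 0.03). In betaD5 it was 0.10 (18 above 0) without SP array 1, 0.12 without non-SP array 3, 0.15 without non-SP array 2, 0.39 without SP array 3 and 0.55 without non-SP array 1. For the mean of the lines the median was 0.05 without cRAF_cMYC SP array 2, 0.07 without cRAF_cMYC non-SP array 1, 0.09 without betaD5 SP array 1 or non-SP array 3, and 0.23 without cRAF_cMYC SP array 1, with at least 22 of the 31 above 0.

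Genes of the pathway outside the 35 gave smaller median differences. All these lists, the 35 included, were chosen with earlier results of these data known. Of 12 tested components of the oxygen-sensing machinery 8 lay above 0 in SP averaged over the lines (median 0.03) with 0 called, the smallest p-values belonging to Elob (-0.13, SE 0.12), a subunit of the Vhl ligase, and Arnt2 (-0.16, SE 0.15), a relative of Arnt. Of 22 further hypoxia-induced genes 14 lay above 0 (median 0.05) with 0 called. Errfi1, a feedback inhibitor of the Egf receptor, gave -0.17 (SE 0.11) and Angptl4, an inhibitor of lipoprotein lipase, 0.32 (SE 0.29). Of 12 glycolysis enzymes 7 lay above 0 (median 0.03) with 0 called, led by hexokinase Hk2 (0.30, SE 0.20) and phosphoglycerate mutase Pgam1 (0.14, SE 0.11). Whether the 31 genes differ from these lists was not tested.

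The lines differed in the level of single hypoxia genes by far more than the fractions did. Among non-SP arrays, A2C12 stood below the mean of betaD5 and cRAF_cMYC over all genes as deposited (median -0.58), and at -0.01 after quantile normalization. Against this shift the median of the 31 genes was -0.22 as deposited and 0.39 after quantile normalization. As deposited 5 of the 31 genes were called higher in A2C12 and 7 lower, where 2.96% of all genes were higher and 49.2% lower. After quantile normalization 12 were called higher and 3 lower, where 15.8% and 16.2% of all genes were. The genes called on both scales, and in the same direction, were Pdk1, Rora, Bnip3, Plod1 and Ak4 (higher in A2C12) and Slc2a3, Pfkfb3 and Vhl (lower). Without the pairs betaD5 1 and cRAF_cMYC 3 there were 6 higher and 5 lower as deposited (4.1% and 45.9% of all genes). With SP arrays in place of non-SP arrays 5 were called higher and 10 lower (2.77% and 50.7% of all genes). Ak4 was not among those 5 (0.73, limma adjusted p = 0.061), and Ppp1r3c was (0.79, limma adjusted p = 0.039).

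Slc2a3, the high-affinity glucose transporter Glut3, was close to the low end of the scale in A2C12. Its A2C12 signals were 5.28, 5.24 and 5.30 in non-SP and 5.40, 5.58 and 5.66 in SP arrays. In betaD5 they were 10.48, 9.08 and 9.80, then 10.61, 9.86 and 9.69 in SP arrays. The cRAF_cMYC signals were 9.61, 10.75 and 9.03, then 9.82, 10.76 and 9.24. No A2C12 array came within 3 log2 units of any other array. All 6 A2C12 signals lay under the filter limit of 6.53, and the gene passed the filter through the other lines, so the size of the fitted difference (-4.52, limma adjusted p = 1.6e-07; quantile -3.98) cannot be read exactly. The mean of the betaD5 and cRAF_cMYC non-SP arrays lay 3.26 above that limit. A second probe set of Slc2a3 gave -3.66, and 2 dim ones gave -0.51 and -0.61. The A2C12 SP difference of 0.27 (SE 0.43) is likewise a difference among signals under the limit. Slc2a1, which serves the same substrate, differed between the lines by -0.69 as deposited (adjusted p = 0.036), which is -0.11 relative to all genes, and by -0.04 after quantile normalization, where it was not called.

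Pfkfb3 was lower in A2C12 by 1.93 as deposited (SE 0.29, adjusted p = 8.0e-05) and by 1.41 after quantile normalization, with the values given above. Its A2C12 signals, at most 7.18, lay below every betaD5 and cRAF_cMYC signal, of which the lowest was 7.67. With SP arrays the difference was -2.88, and Kdm3a, at -0.72 and not called among non-SP arrays (adjusted p = 0.079), was called lower among SP arrays (-1.69, adjusted p = 0.00066). After quantile normalization Kdm3a differed by only -0.09 among non-SP arrays.

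Pdk1, which blocks entry of pyruvate into the citric acid cycle, was high in A2C12 instead. It read 10.10, 10.23 and 10.48 in A2C12 non-SP and 10.25, 10.01 and 10.56 in SP arrays. The betaD5 signals were 9.18, 7.92 and 7.81, then 9.43, 7.61 and 7.82 in SP arrays. In cRAF_cMYC they were 8.80, 9.97 and 8.20, then 8.40, 9.69 and 7.94. Every A2C12 array lay above every other, by little against cRAF_cMYC 2 and by about 2 log2 units against betaD5 2 and 3. The difference was 1.62 (SE 0.46, adjusted p = 0.0082; quantile 2.21), the call being lost without A2C12 pair 3. The 3 other probe sets of Pdk1 gave 2.43, 2.80 and 0.59. In cRAF_cMYC Pdk1 was the gene with a lower SP signal in 3 of 3 pairs at an unadjusted paired p under 0.05 (-0.31, SE 0.12).

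Rora, a nuclear receptor that hypoxia induces, stood close to the filter limit outside A2C12 and read 8.01, 8.17 and 8.55 in A2C12 non-SP and 7.86, 8.42 and 8.23 in SP arrays. In betaD5 it read 7.07, 6.69 and 6.64, then 7.41, 6.26 and 7.01, and in cRAF_cMYC 6.37, 6.53 and 6.45, then 6.34, 6.96 and 7.55. A2C12 did not overlap with the other lines, at a difference of 1.62 (SE 0.27, adjusted p = 0.00018; quantile 2.18). Of its 8 other probe sets 5 were higher in A2C12 (1.09 to 1.74) and 3 lower (-0.86 to -0.54), as deposited. Bnip3, which marks mitochondria for removal, read 11.63, 11.85 and 12.06 in A2C12 non-SP and 11.50, 11.82 and 12.12 in SP arrays. Its betaD5 signals were 10.85, 10.05 and 10.06, then 11.19, 10.35 and 10.39, and its cRAF_cMYC signals 10.59, 11.48 and 10.30, then 10.38, 11.45 and 10.33. A2C12 was again above all other arrays, at 1.29 (SE 0.31, adjusted p = 0.0027; quantile 1.92). Gbe1, the glycogen branching enzyme, read 6.99, 6.14 and 7.14 in A2C12 non-SP and 6.94, 6.28 and 7.13 in SP arrays. It read 7.92, 8.32 and 8.44, then 8.19, 9.37 and 8.35 in betaD5, and 7.22, 8.22 and 8.46, then 7.11, 8.28 and 8.93 in cRAF_cMYC. The difference of -1.34 as deposited (SE 0.39, adjusted p = 0.0091) became -0.84 and was not called after quantile normalization (adjusted p = 0.088).

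The remaining calls were smaller. Plod1, a lysyl hydroxylase, was higher in A2C12 by 1.03 (SE 0.24; quantile 1.60), although its second, dim probe set gave -0.61. Ak4 was higher by 0.997 (SE 0.32; quantile 1.58), and its 4 other probe sets gave 1.16, -0.40, -0.04 and -0.57. Vhl was lower by 1.05 (SE 0.25; quantile -0.49), and its second probe set gave 0.09. Egln1, Slc2a1 and P4ha1 were called lower as deposited only, and Pfkfb4, Ddit4, Ero1a, P4ha2, Mxi1, Ppp1r3c and Gys1 were called higher after quantile normalization only. Between both scales the sign turned for 8 of 31 genes, and no gene was called in opposite directions. Hif1a differed by -0.37 as deposited and by 0.24 after quantile normalization, and was called on neither scale. Vegfa gave -0.33 and 0.29, and was not called either.

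**Figure D3:**
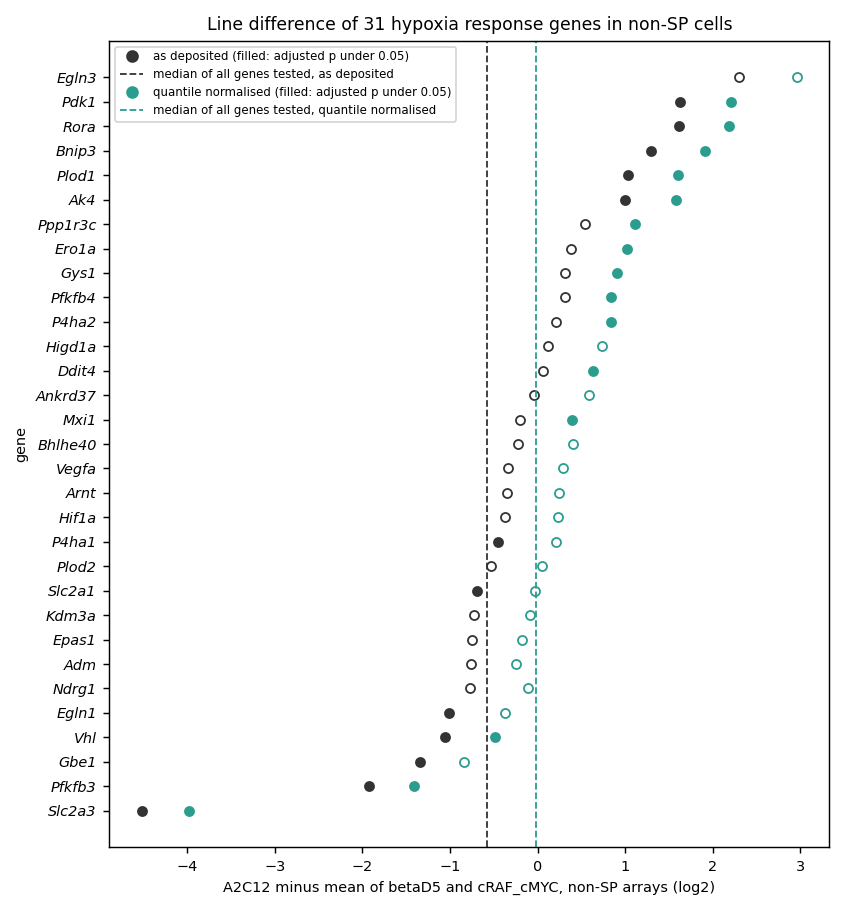
Difference of A2C12 from the mean of betaD5 and cRAF_cMYC in non-SP arrays (log2) for the 31 tested genes, as deposited (dark) and after quantile normalization (green), filled where the adjusted p was under 0.05, with dashed lines at the median of all genes tested (-0.58 and -0.01). Slc2a3 lies farthest to the left (-4.52 and -3.98), Pfkfb3 next, and Egln3, at the top (2.30 and 2.96), is open on both scales.

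In the other pathway lists, 8 of 12 oxygen-sensing components were called lower and 0 higher in A2C12 as deposited, against 4 lower and 1 higher after quantile normalization. Of all genes, 49.2% were lower and 2.96% higher as deposited, and 16.2% and 15.8% after quantile normalization, and the counts of each list below are to be read against these shares. Cul2, a scaffold of the Vhl ligase, gave -1.95 (SE 0.23; quantile -1.34), the ubiquitin ligase Siah1a -1.70 (SE 0.24; quantile -1.17), the coactivator Crebbp -1.19 (SE 0.19; quantile -0.53) and Arnt2 -1.11 (SE 0.23; quantile -0.61). Of 22 further hypoxia-induced genes 2 were higher and 5 lower as deposited, and 7 higher and 0 lower after quantile normalization. Errfi1 gave 0.93 (SE 0.17; quantile 1.55), Angptl4 1.88 (SE 0.43; quantile 2.48), Pgm2, a phosphopentomutase, -0.78 (SE 0.17) and Ndufa4l2, a mitochondrial protein, -0.63 (SE 0.18), the last 2 of which were not called after quantile normalization (-0.25 and -0.15). Of 12 glycolysis enzymes 2 were called higher as deposited, the aldolase Aldoc (2.73, SE 0.99; quantile 3.41) and the phosphofructokinase Pfkp (0.73, SE 0.29; quantile 1.36), and 9 after quantile normalization, with 0 lower on either scale. Of the fibroblast markers 4 of 7 tested were called lower in A2C12 as deposited (49.2% of all genes) and 3 after quantile normalization (16.2%), and the mean of 8 ran from 9.27 to 9.54 in A2C12 and from 10.16 to 12.34 in the other lines. Their part in the line differences of the hypoxia genes was not tested.

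Egln3, a hydroxylase that hypoxia induces in many cells, separated the arrays against their labels (it was chosen after its values were seen). In A2C12 it read 9.02, 9.14 and 9.24 in non-SP and 9.23, 8.995 and 9.33 in SP arrays. In betaD5 it read 9.001, 4.74 and 4.98, then 9.31, 4.91 and 5.34 in SP arrays. In cRAF_cMYC it read 8.61, 9.32 and 4.33, then 8.81, 9.63 and 4.59. No array lay between 5.34 and 8.61: both arrays of betaD5 2 and 3 and of cRAF_cMYC 3 were low, and those of betaD5 1, cRAF_cMYC 1 and 2 and A2C12 were high. The second probe set of Egln3 also differed, at 1.60 between A2C12 and the other lines in non-SP arrays. Within pairs the SP array was higher in 8 of 9, by at most 0.36.

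Epas1 followed part of this order. It read 9.33, 6.85 and 5.84 in betaD5 non-SP and 8.95, 6.91 and 7.36 in SP arrays. Its cRAF_cMYC signals were 7.98, 8.66 and 6.67, then 8.16, 8.28 and 7.40, and its A2C12 signals 6.98, 6.85 and 6.59, then 6.72, 6.36 and 6.56. The signal was highest in the arrays labelled betaD5 1, cRAF_cMYC 1 and cRAF_cMYC 2. Adm, the vasodilator peptide adrenomedullin, read 9.45 and 9.25 in betaD5 1, 9.49 and 9.41 in cRAF_cMYC 2, 8.36 and 8.31 in cRAF_cMYC 1, and at most 7.66 in betaD5 2 and 3 and cRAF_cMYC 3. Egln1 had the opposite order, at 10.89 to 11.18 in betaD5 2 and 3 and cRAF_cMYC 3 and at most 10.21 elsewhere.

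With the labels as given, none of the 31 genes was called between betaD5 and cRAF_cMYC among non-SP arrays, and 0% of all genes were called in either direction (limma; at an unadjusted p under 0.05, 0 of the 31, with 685 of all genes higher and 4 lower). The median of all genes was 0.27 as deposited and 0.03 after quantile normalization. Egln3 then differed by -1.18 (SE 1.43) and Epas1 by -0.43 (SE 0.68). Without the pairs betaD5 1 and cRAF_cMYC 3, which left 2 arrays in each of these groups, 1 gene was called higher in betaD5 and 4 lower (8.02% and 3.17% of all genes). These were Egln1 (1.09, SE 0.26, adjusted p = 0.012), Egln3 (-4.11, adjusted p = 1.4e-07), Epas1 (-1.98, SE 0.34, adjusted p = 0.00099), Pdk1 (-1.52, SE 0.40, adjusted p = 0.023) and Adm (-1.38, SE 0.44, adjusted p = 0.0495). The betaD5 signals of Egln3 lay under the filter limit, so its difference has no exact size, and its mean in cRAF_cMYC non-SP arrays 1 and 2 lay 2.43 above the limit. Both pairs were left out because of their likeness to arrays of the other line over all genes, Egln3 among them, so these values are a description of the arrays that remained, where the median of all genes was 0.33.

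**Figure D4:**
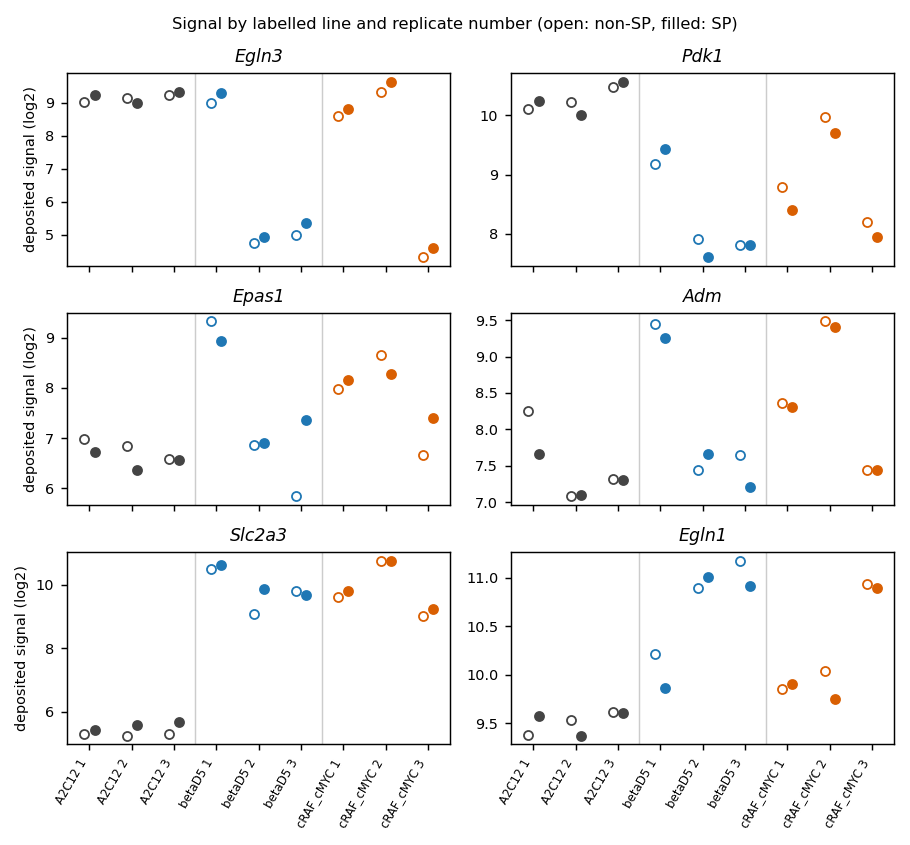
Deposited log2 signals of 6 genes in every array, by labelled line and replicate number, with non-SP arrays open and SP arrays filled. Egln3 is at 4.33 to 5.34 in betaD5 2 and 3 and cRAF_cMYC 3 and at 8.61 or above elsewhere, Egln1 runs the other way, and Slc2a3 is at 5.24 to 5.66 in A2C12 and at 9.03 or above elsewhere.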

How the data were processed

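Expression was measured on Affymetrix mouse 3' arrays, with 200 ng of total RNA made into 10 µg of biotin-labelled cRNA per the labels. The deposited values are log2 signals, made by the authors with Affymetrix Expression Console per the submitters' processing notes. The version, summary algorithm and normalization are not given in the sources used here. Arrays give no read depth, and their number limits the precision. Of 45101 probe sets, 34945 carried 1 gene symbol, 932 several (left out), 9160 none and 64 were controls. Each of 18193 genes was read from its probe set with the highest mean, and the lowest 40% by mean were not tested.

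In R 4.3.3, 6 group means over 18 arrays were fitted without a block by limma 3.58.1 (eBayes with a trend). On simulated data the size of its estimates was checked. Recovery of changed genes was required there only of the fit that blocks on pairs. All tests are two-sided, with Benjamini-Hochberg adjustment over 10916 genes and calls where the adjusted p is under 0.05. The labels number replicates without saying whether they were separate cultures, so p-values measure the spread between these samples, which may be technical. How far each array lay from its group mean correlated between SP and non-SP arrays of 1 number at 0.43 to 0.95 in all 9 pairs. The numbers were therefore treated as pairs, and a fit with that block is given beside the results; for betaD5 3 the r of 0.60 was below that with another number (0.68). Values were given in every array for the 8 genes with the smallest p in the averaged SP comparison, the 3 smallest in each line, the 6 largest called line differences, and Hif1a, Epas1, Slc2a1 and Vegfa. Of the other pathway lists the text names up to 4 called genes, or the 2 with the smallest p. The members and lists were chosen with earlier results of these data known. Promoter sequences are RefSeq's (GRCm38.p6).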

Additional observations from a re-analysis of the deposited data

Results flagged for a closer look

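Mxi1 was lower in SP in all 3 A2C12 pairs and higher in all 3 pairs of betaD5 and of cRAF_cMYC. The difference of the SP differences was 0.283 for betaD5 minus A2C12 and 0.357 for cRAF_cMYC minus A2C12, and neither passed the limma test after adjustment. The A2C12 values were at most 0.08 below 0. The second probe set of Mxi1 (mean signal 6.90) did not show the betaD5 rise, at -0.01 there, 0.14 in cRAF_cMYC and -0.07 in A2C12.

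The 3′ to 5′ log2 ratio of the Gapdh control probe sets was 0.76 in the SP array of betaD5 2 and 0.97 in that of betaD5 3, above the highest of the 9 non-SP arrays (0.56). Its part in the betaD5 differences was not tested beyond the covariate fit given above, which used the mean of the Gapdh and Actb ratios. Groups of 3 arrays were not tested for single outlying samples.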

How the results depend on the processing

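Over all alternatives 327 counts of called genes stayed within 1.5 times the count reported and 2 did not. The reported count was 0 for every SP comparison and for betaD5 minus cRAF_cMYC, and a 0 that stayed 0 counts as kept. The rule also ignores direction. A2C12 against the other lines counts as kept with quantile normalization, though its calls went from 5 higher and 7 lower to 12 higher and 3 lower. With the filter at 60%, where 21 of the 31 genes are tested, A2C12 against the other lines had 6 calls in place of 12. The 12 stand beside 49.2% of all genes lower and 2.96% higher. Shares of all genes with the 60% filter, or with single arrays or pairs left out, are not given here. Without the pairs betaD5 1 and cRAF_cMYC 3, betaD5 minus cRAF_cMYC had 5 calls in place of 0 (8.02% of all genes higher and 3.17% lower). Leaving out each array or pair gave 8 to 16 calls for A2C12 against the other lines and 0 in every SP comparison, as did quantile normalization, median centring, no filter, the mean of all probe sets and the replicate block, whether alone, with quantile normalization, with the 3′/5′ covariate or without both pairs. Single genes were followed only where picked by smallest p or as the largest called line differences, each in the comparison that picked it. Of their values 817 kept direction and side of the threshold and 5 lost their call. These were Gbe1 between lines with quantile normalization (-0.84), with median centring (-0.84) and without A2C12 non-SP array 2 or its pair (-1.03 in both), and Pdk1 without A2C12 pair 3 (1.52). Other genes named above, such as Slc2a1, Egln1 and P4ha1, also lost their line call with quantile normalization. None of the values followed turned its sign, but the line differences of Hif1a and Vegfa, outside that set, did so with quantile normalization. Signals near the low end, such as Slc2a3 in A2C12, limit how small a level these arrays can show.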
